A study of Mus musculus with 31 samples.

Results

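Spon2 encodes spondin 2, also called mindin, and was followed here as 1 gene among 19938 that the array measured under a single symbol. It was represented by its highest-mean probe set (10529264), which is also the 1 probe set whose annotation lists Spon2. In the RefSeq gene table the gene lies on mouse chromosome 5. It was chosen by its low level after cigarette smoke in saline-treated AKR lung, with the results of the other comparisons already known, so the smoke difference in that strain and treatment is described here and was not tested.

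Spondin 2 is a secreted extracellular matrix protein of the F-spondin family, built from a spondin domain and a thrombospondin type 1 repeat. In mouse studies it binds lipopolysaccharide (LPS), an endotoxin in the outer membrane of many bacteria, acts as an opsonin for macrophages and serves as a ligand for integrins on neutrophils and dendritic cells. It thus belongs both to the matrix and to the first line of recognition of bacteria in tissue.

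The data are 31 microarrays of lung tissue from males of the inbred mouse strains AKR and C57 BL/6 (C57 below), all with a labelled age of 6 weeks. In each strain, groups were given room air or cigarette smoke followed by normal saline or LPS in saline into the trachea, with 3 arrays in each of these 8 groups except AKR smoke LPS, which has 2. The other 3 groups breathed room air alone: C57 for 6 weeks (3 arrays), AKR for 6 weeks (3 arrays) and AKR for 3 weeks (2 arrays), as titled. For instilled mice the exposure is 3 weeks by title and 6 by the series text, so its length is uncertain, and every smoke group was also instilled. None of these mice is described as carrying an engineered allele, and the number of arrays limits the precision of every value.

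Each array is of lung tissue in bulk, in which fewer cells of a type and less RNA per cell cannot be told apart. Markers of alveolar type 2 cells, which make surfactant, were above the 40th percentile of probe sets on all 31 arrays (6 of 6 markers). So were at least 6 of 7 heart muscle markers, whose source was not examined. By distribution the arrays form 2 sets, 18 whose medians were 6.96 to 7.10 and 13 whose medians were 6.80 to 6.90. The smaller set holds all instilled AKR arrays and AKR room air at 3 weeks. Differences between the strains are therefore also differences between sets except in room air at 6 weeks, where both strains lie in the larger set. A pair of C57 arrays read against their labels: Saa3, an acute-phase protein raised by LPS, was 12.5 on the array labelled C57 smoke saline 3 and 6.06 on the array labelled C57 smoke LPS 3. Both were kept under their labels. Spon2 differences and counts of called genes are also given without both where stated. Correlations, gene and marker lists, other named genes and exact tests were computed only with both kept.

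In AKR lung, Spon2 was low on every smoke array. With saline its log2 intensity was 8.13, 8.03 and 7.98 after room air and 6.36, 6.46 and 6.33 after smoke. The groups lay far apart, and neither varied much: the SD was 0.079 after air and 0.065 after smoke (n = 3 and 3). The difference was -1.66 ± 0.17 log2 units (standard error of the limma fit), a level 3.16-fold lower after smoke, with a 95% confidence interval of 2.49 to 4.02-fold. These are the values that chose the gene. In that comparison limma called 5 of 14705 genes, or 0.034%, given as the background of that fit and not as a test of Spon2. The count was 49 without both doubted C57 arrays, 79 and 26 without smoke saline replicate 3 and air saline replicate 3, and 1 or 2 without any of the other 4 AKR saline arrays. Smoke arrays lay below air arrays for 5.33% of tested genes, from which nothing is read for a gene chosen by these values.

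With LPS, on other arrays, Spon2 was again lower after smoke. Spon2 read 7.78, 7.21 and 7.93 on the AKR air LPS arrays and 6.39 and 6.45 on the AKR smoke LPS arrays. Both smoke arrays lay below all 3 air arrays, as for 11.1% of tested genes, although air LPS replicate 2 was clearly lower than the other two. Spon2 fell by 1.22 on the log2 scale (standard error 0.19), to a level 2.32-fold lower (95% confidence interval 1.78 to 3.04-fold; limma adjusted p = 0.0159). It was the 1 gene of 14705 that passed in this comparison, where the share called was 0.0068% and the next smallest adjusted p was 0.0579. Without both doubted C57 arrays 228 genes passed, and without air LPS replicate 2, 435 did. These arrays share none with the saline comparison, but their result was known when the gene was chosen. The call depended on single arrays: the adjusted p was 6.3e-04 without air LPS replicate 2, 0.181 and 0.153 without air LPS replicates 1 and 3, 0.387 and 0.508 without smoke LPS replicates 1 and 2, and 0.318 with these 5 arrays fitted alone, while the difference stayed between -1.43 and -1.07. An exact two-sided permutation test of 2 against 3 arrays cannot give less than 0.1, and gave 0.1 (also added after the data were seen).

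**Figure D1:**
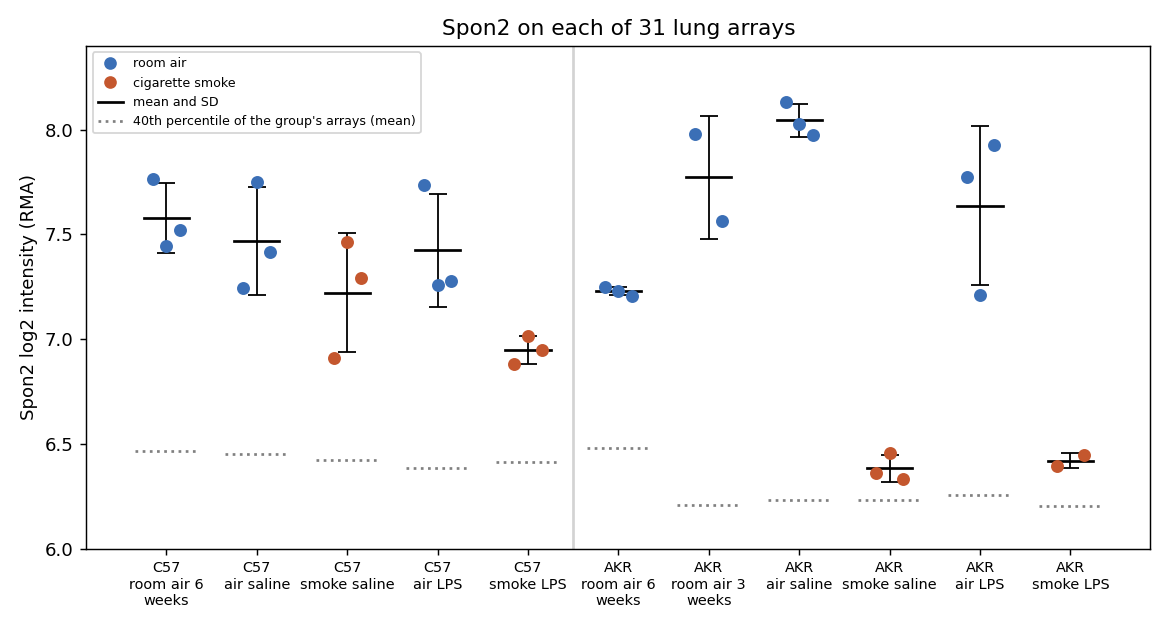
Log2 intensity of Spon2 (y axis) on each array, by group (x axis), with C57 on the left and AKR on the right. Points are arrays (blue room air, red smoke), black lines are group means with SD, and dotted lines are the mean 40th percentile of the group's arrays. The 5 AKR smoke arrays lie between 6.33 and 6.46, below all 11 AKR air arrays (7.21 to 8.13).

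Across the AKR arrays the 5 smoke values, from saline- and LPS-treated mice alike, fell within 0.12 log2 units of each other (6.33 to 6.46). The 11 air values spread over 0.92 units (7.21 to 8.13). All 5 smoke arrays were below all 11 air arrays, an order that the choice of the gene fixed in part, since 6 of these arrays chose it. Within their arrays the smoke values sat at the 40.9th to 44.0th percentile of probe sets and the instilled air values at the 55.4th to 68.6th. On the smoke arrays Spon2 was thus 0.054 to 0.245 log2 units above the 40th percentile that served as the limit for low values, and whether it was above background there was not tested.

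In C57 lung the smoke arrays were also lower on average, by less. With saline Spon2 read 7.25, 7.75 and 7.41 after air and 6.91, 7.47 and 7.29 after smoke. These groups overlapped, and the difference of -0.25 ± 0.17 (95% confidence interval -0.59 to 0.10) did not pass (limma adjusted p = 0.876). It was -0.09 without smoke saline replicate 1 and -0.11 without air saline replicate 2. With LPS it read 7.74, 7.26 and 7.28 after air and 6.88, 7.02 and 6.95 after smoke. Here every smoke array lay below every air array, as for 1.41% of the tested genes. The difference was -0.48 ± 0.17 (95% confidence interval -0.82 to -0.13), which did not pass over all genes (limma adjusted p = 1.00; unadjusted p = 0.00895).

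Averaged over saline and LPS, the C57 difference was -0.36 ± 0.12 (95% confidence interval -0.61 to -0.12; limma adjusted p = 1.00, unadjusted p = 0.00541). An exact two-sided permutation test of this value over 400 arrangements within instillations, added after the data were seen, gave p = 0.025. The average corresponds to a level 1.28-fold lower after smoke. In AKR the level was 3.16-fold lower with saline, the value that chose the gene, and 2.32-fold lower with LPS. limma called 0 of 14705 genes (0%) for smoke in C57, whether with saline (906 at an unadjusted p under 0.05), with LPS (217) or averaged (167). Without smoke LPS replicate 1 it called 16 with LPS and 1 averaged, and without smoke LPS replicate 2 it called 1 with LPS. Without both doubted arrays the C57 differences were -0.28 with saline, -0.47 with LPS and -0.38 averaged.

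Whether smoke lowered Spon2 more in AKR than in C57 was tested on the LPS arrays. The AKR difference minus the C57 difference was -0.74 ± 0.25 log2 units (95% confidence interval -1.26 to -0.22; unadjusted p = 0.00688), and did not pass over all genes (limma adjusted p = 0.429; 0 of 14705 called, 0%, and 1674 at an unadjusted p under 0.05; 1 called without C57 smoke LPS replicate 1). With saline, where the AKR arrays chose the gene, the corresponding difference was -1.41 ± 0.24 and is given as a description. The smoke differences of AKR with saline and with LPS differed from each other by -0.44 ± 0.25 (95% confidence interval -0.96 to 0.07), also a description.

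**Figure D2:**
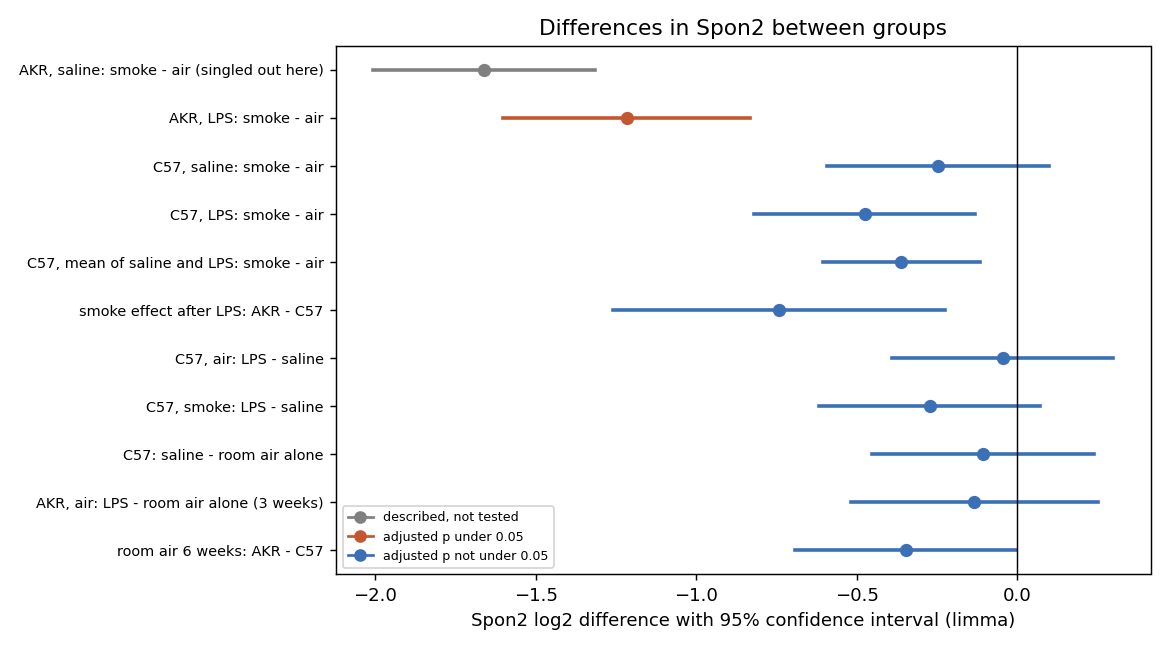
Differences in Spon2 between groups (x axis, log2 units; points with 95% confidence intervals from limma), one line per comparison (y axis). Grey is the comparison that chose the gene, and red and blue are adjusted p under and not under 0.05. Both AKR smoke differences, -1.66 and -1.22, lie below those of C57, and the intervals of the 3 comparisons of LPS with saline or room air include 0.

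No tested difference of LPS from saline or room air passed for Spon2. In C57 after air the difference between LPS and saline was -0.05 ± 0.17 (95% confidence interval -0.39 to 0.30; limma adjusted p = 0.870), in a comparison where 15.7% of genes (2316) were called, and 1121 to 1344 without any 1 of the air saline arrays or air LPS replicate 3. The Spon2 difference ranged from -0.20 to 0.095 with 1 array left out. The groups overlapped, at 7.26 to 7.74 with LPS and 7.25 to 7.75 with saline. In C57 after smoke it was -0.27 ± 0.17 (95% confidence interval -0.62 to 0.07; limma adjusted p = 0.610). That comparison called 0 genes (0%; 1300 at an unadjusted p under 0.05) with both doubted arrays, 1881 without smoke LPS replicate 3, 18 without smoke saline replicate 3 and 3048 without both, where Spon2 was at -0.24 (adjusted p = 0.484).

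In AKR, LPS after air was set against room air alone for 3 weeks, a reference that leaves out the arrays that chose the gene. The room air arrays read 7.98 and 7.56 and the LPS arrays 7.21 to 7.93, so the groups overlapped. The difference was -0.13 ± 0.19 (95% confidence interval -0.52 to 0.25; limma adjusted p = 0.702), while 15.8% of genes (2325) were called, a count that fell to 111 and 364 without room air replicates 2 and 1 and to 720 without air LPS replicate 1. Without air LPS replicate 2 the Spon2 difference was 0.08. Against the saline arrays, LPS was at -0.41 ± 0.17 after air (95% confidence interval -0.75 to -0.063, which leaves out 0) and 0.04 ± 0.19 after smoke (-0.35 to 0.42), which are descriptions since they use the chosen arrays.

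Instillation of saline in C57, compared with room air alone, gave -0.11 ± 0.17 (95% confidence interval -0.45 to 0.24; limma adjusted p = 1.00; 0.0136% of genes called, which is 2 genes, and 16 without both doubted arrays), with 7.77, 7.44 and 7.52 on the room air arrays.

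In room air for 6 weeks, where both strains lie in the same set of arrays, Spon2 read 7.25, 7.23 and 7.21 in AKR and 7.77, 7.44 and 7.52 in C57. All 3 AKR arrays were below all 3 C57 arrays, as for 9.86% of tested genes. The difference of -0.35 ± 0.17 (95% confidence interval -0.69 to -0.0031) did not pass (limma adjusted p = 0.420), against 2.69% of genes called (396, and 228 to 254 without any 1 of AKR replicates 1 and 3 and C57 replicates 2 and 3). In AKR, 3 weeks of room air read higher than 6 weeks, but the arrays at 3 weeks belong to the other set of arrays, so time and set cannot be told apart.

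Ordered by group mean, Spon2 ran from AKR air saline (8.05, SD 0.079) through AKR room air 3 weeks (7.77, SD 0.294), AKR air LPS (7.64, SD 0.378), C57 room air 6 weeks (7.58, SD 0.168), C57 air saline (7.47, SD 0.257) and C57 air LPS (7.42, SD 0.270). Below these came AKR room air 6 weeks (7.23, SD 0.021), C57 smoke saline (7.22, SD 0.284), C57 smoke LPS (6.95, SD 0.067), AKR smoke LPS (6.42, SD 0.037) and AKR smoke saline (6.38, SD 0.065). The levels come from 2 sets of arrays, so the order across them is uncertain. The ranges of neighbours in this order overlapped except between C57 air LPS and AKR room air 6 weeks and between C57 smoke LPS and AKR smoke LPS. The 4 lowest means were those of the 4 smoke groups, but that of C57 smoke saline was only 0.0074 below that of AKR room air 6 weeks. The lowest group, AKR smoke saline, is among those that chose the gene.

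The size of the Spon2 difference was set beside that of other genes in AKR as a description, since its saline value chose it. With saline, 14 genes were below -1 log2 unit, and with LPS 46 were. Those below -1 in both were Spon2, the secretoglobin Scgb1c1, the epidermal protein gene Rptn and the small RNA genes Snora31 and Snord118, chosen by this bound after the values were seen. Over all genes the median difference was 0.01 with saline and 0.05 with LPS. With LPS 14 genes had a lower value than Spon2, so that it was first by p and 15th by size.

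**Figure D3:**
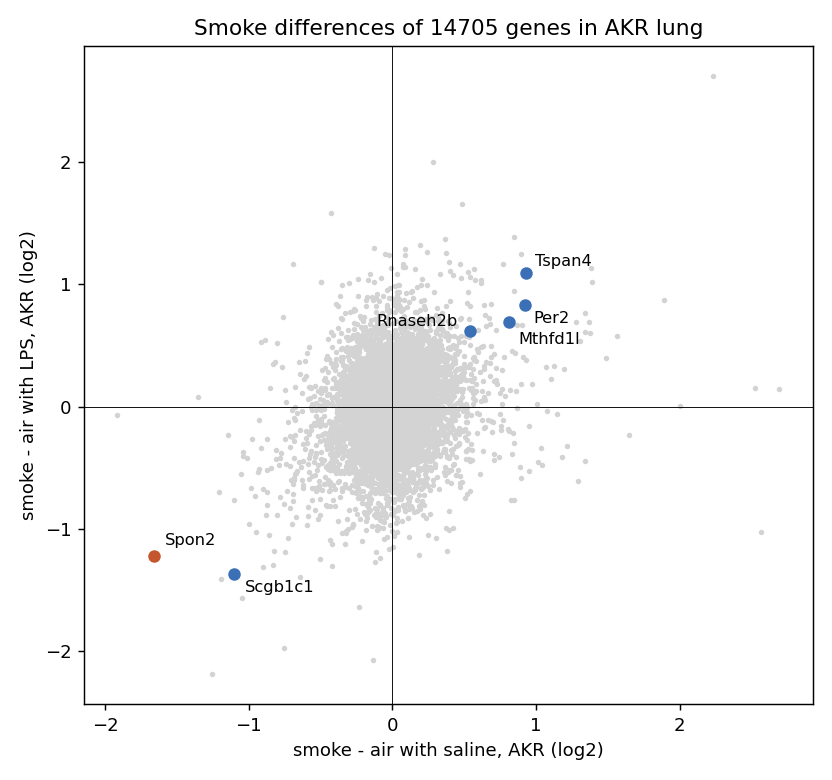
Smoke minus air in AKR lung for each of 14705 tested genes (grey points), with saline on the x axis and with LPS on the y axis, both in log2 units. Spon2 (red) lies at -1.66 and -1.22, and 5 genes named in the text are marked in blue.

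The genes whose smoke pattern was most like that of Spon2 were found over the 23 instilled arrays after subtracting the mean of each strain and instillation, as a description. The highest correlations were with Col3a1 (r = 0.82), a fibrillar collagen, Unc45b (0.81), a myosin chaperone of muscle, Cars2 (0.81), a mitochondrial cysteine tRNA ligase, Pkdcc (0.79), a secreted protein kinase, Pdlim5 (0.79), a cytoskeletal scaffold, and Ankrd23 (0.78), a muscle ankyrin repeat protein. In AKR their differences were all smaller in size than that of Spon2. Heart muscle markers were lower after smoke for 7 of 7 in AKR with saline (median -0.56), AKR with LPS (-0.80) and C57 with saline (-0.62), and for 0 of 7 in C57 with LPS (0.33). Their means overlapped between smoke and air in each (10.0 to 11.5 against 10.3 to 12.2 in AKR with saline, 9.05 to 10.9 against 9.52 to 11.6 with LPS), 0 of 7 passed, and their part in these patterns was not tested. In AKR with saline Col3a1 read 9.83, 9.65 and 9.85 after air against 9.14, 9.46 and 9.04 after smoke, with no overlap. This order was that of 5.33% of tested genes, and the choice of Col3a1 by correlation over these arrays fixed it in part. The Col3a1 difference was -0.56 ± 0.14 with saline and -0.57 ± 0.16 with LPS in AKR. In C57 it was 0.29 ± 0.14 and -0.14 ± 0.14. All are descriptions without a p.

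The most opposite patterns belonged to Rnaseh2b (r = -0.92), a subunit of ribonuclease H2, the clock gene Per2 (-0.88), Mthfd1l (-0.88), of mitochondrial folate metabolism, the tetraspanin Tspan4 (-0.84), Nsun3 (-0.81), a mitochondrial tRNA methyltransferase, and Nptn (-0.81), a cell adhesion molecule. In AKR with saline Per2 read 8.92, 9.22 and 9.23 after air against 10.3, 9.92 and 9.92 after smoke, higher on all 3. The share of all tested genes in that order was not counted. With LPS Per2 read 8.53, 8.59 and 8.08 after air and 9.18 and 9.27 after smoke, an order of 23.9% of tested genes. In AKR the Per2 difference was 0.92 ± 0.17 with saline and 0.83 ± 0.19 with LPS. That of Mthfd1l was 0.82 ± 0.14 and 0.69 ± 0.16. These genes were chosen by their correlation with Spon2 over these same arrays. Their order and differences were thus fixed in part by the choice, and are descriptions without a p. Rnaseh2b was at 0.54 ± 0.11 with saline and 0.62 ± 0.12 with LPS in AKR, and at 0.22 ± 0.11 and 0.13 ± 0.11 in C57. The points behind these correlations share their arrays and, within a strain, their set.

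Over the 11 group means, without any subtraction, the closest genes were Psd (r = 0.83), Fam124b (0.83), the collagen Col5a1 (0.80), the secretoglobin Scgb1c1 (0.80), the lung chemokine Cxcl15 (0.77) and the ectodysplasin receptor Edar (0.77). Scgb1c1 was at -1.10 ± 0.24 with saline and -1.36 ± 0.27 with LPS in AKR, and at -0.36 ± 0.24 and -0.26 ± 0.24 in C57. These are descriptions, since the gene was chosen by its correlation over these groups. In AKR with saline it read 10.3, 10.5 and 10.7 after air and 9.84, 9.31 and 9.12 after smoke. These groups did not overlap, as for 5.33% of tested genes, an order that the choice of the gene fixed in part.

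**Figure D4:**
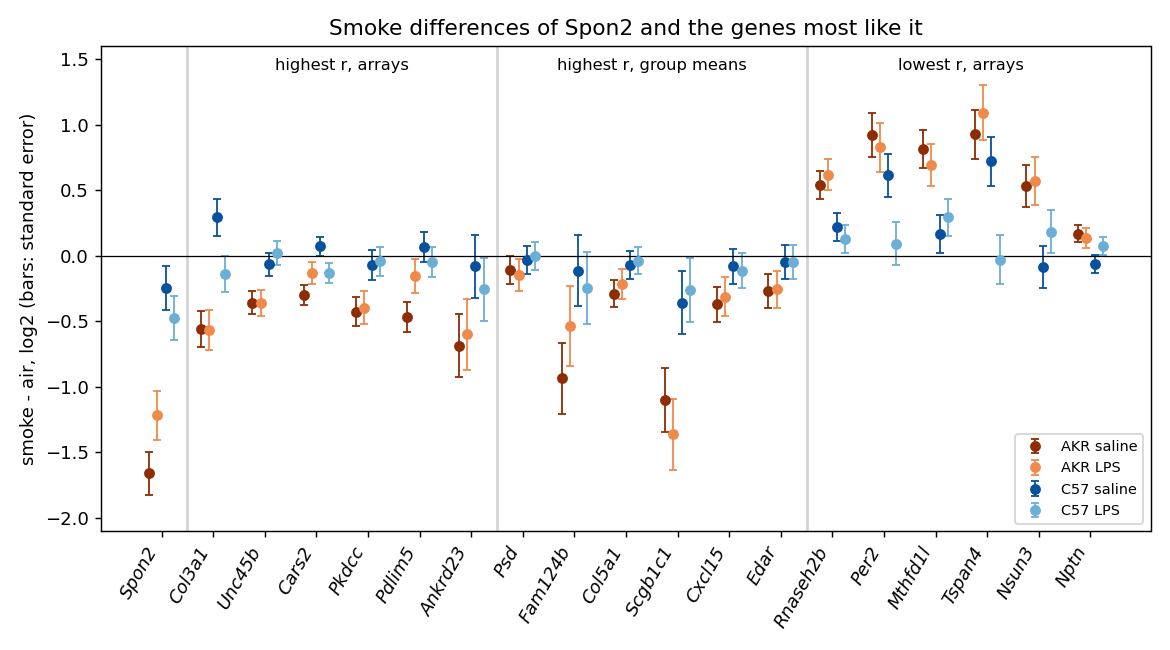
Smoke minus air (y axis, log2 units; bars are standard errors from limma) for Spon2 and the genes with the most similar or most opposite pattern (x axis), in AKR with saline and LPS (dark and light red) and C57 with saline and LPS (dark and light blue). The AKR differences of Spon2, -1.66 and -1.22, are larger in size than those of Col3a1, -0.56 and -0.57.

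Related genes were set beside Spon2 against a background of 0.034% of genes called with saline and 0.0068% with LPS in AKR, so a count of 0 in a list is near that share and says nothing particular about it. Spon1, which encodes F-spondin of the same family, was at 0.17 ± 0.21 with saline and 0.24 ± 0.24 with LPS in AKR (limma adjusted p = 0.998 and 0.664). Of 27 tested genes with thrombospondin type 1 repeats, other than Spon2, 0 passed in any of the 4 smoke comparisons. With saline in AKR 17 of them were lower (median -0.10), against 45.8% of all tested genes (median 0.01), and with LPS 14 were (median -0.02), against 41.3% (median 0.05). The metalloproteinase Adamts9 was at -1.04 ± 0.20 with saline (limma adjusted p = 0.0546) and -0.37 ± 0.23 with LPS, and Thbs1, the angiogenesis inhibitor thrombospondin 1, at -0.76 ± 0.20 and 0.73 ± 0.22. Extracellular matrix genes had a median of -0.29 with saline and -0.08 with LPS in AKR, and 0 of 16 passed in either. With saline 14 of 16 were lower, against 45.8% of all tested genes. The mean over the 16 was 9.27 to 9.39 on the smoke arrays and 9.62 to 9.79 on the air arrays. These means did not overlap, an order that 5.33% of single genes showed. With LPS 9 were lower, against 41.3%, and the means overlapped (9.59 to 9.60 against 9.55 to 9.67). The part of this in the Spon2 difference was not tested. Elastin (Eln), the rubber-like fibre protein, was at -0.98 ± 0.25 and -0.66 ± 0.28.

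Integrin subunits known as receptors of spondin 2 and genes of LPS recognition were measured beside it. Of 5 integrin subunits 0 passed in any smoke comparison. In AKR their median was -0.14 with saline and 0.37 with LPS, where both smoke arrays (means over the 5 of 10.8 and 10.8) lay above the air arrays (10.1 to 10.6), an order that 23.9% of single genes showed. Itgam, the alpha subunit of the neutrophil and macrophage receptor Mac-1, was at -0.11 ± 0.53 and 0.82 ± 0.59, and its partner Itgb2 at -0.14 ± 0.25 and 0.42 ± 0.28. Of 8 LPS recognition genes 0 passed in any smoke comparison. In AKR with LPS their means lay above the air arrays on both smoke arrays (9.91 and 9.97 against 9.54 to 9.83), also an order of 23.9% of single genes. The means overlapped in AKR with saline and in C57. In AKR, 3 of 8 were lower with saline and 1 of 8 with LPS. Tlr4, the LPS receptor, was at -0.27 ± 0.17 and 0.34 ± 0.19, and its coreceptor Cd14 at 0.64 ± 0.61 and 0.05 ± 0.69. Ly96, which binds LPS on Tlr4, was at 0.57 ± 0.28 and 1.03 ± 0.32 (limma adjusted p = 0.797 and 0.173). Of 4 tested targets of the aryl hydrocarbon receptor, which senses smoke hydrocarbons, 1 rose in AKR with saline, the quinone reductase Nqo1 (1.28 ± 0.22, limma adjusted p = 0.0314), and 0 with LPS, where Nqo1 was at 0.69 ± 0.25. The mean of these 4 was above air on every smoke array in AKR with saline (7.38 to 7.88 against 7.04 to 7.28). The same held in AKR with LPS (7.22 to 7.25 against 6.92 to 7.15), as for 23.9% of single genes. It also held in C57 with saline (7.70 to 7.91 against 7.32 to 7.50), while with LPS in C57 the means overlapped. The share of single genes in that order was not counted with saline. In C57, Cyp1a1, the classical target, was at 0.85 ± 0.24 with saline and 0.88 ± 0.24 with LPS (limma adjusted p = 0.653 and 1.00), on the same arrays on which Spon2 was lower by 0.25 and 0.48 on average. With LPS, Cyp1a1 read 5.89, 6.65 and 7.32 after smoke, the last on the doubted array C57 smoke LPS 3. After air with LPS it read 5.94, 5.78 and 5.50, so these groups overlapped.

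Markers of the cell types that lung tissue can hold were compared on the same arrays. In AKR with saline, 2 of 14 marker lists had every smoke array below every air array, an order that 5.33% of single genes showed. These were fibroblast markers (means over 8 markers of 8.904 to 8.955 against 8.958 to 9.137) and B cell markers (5 markers, 6.59 to 7.05 against 7.20 to 7.50). Of fibroblast markers 5 of 8 were lower, and of B cell markers 5 of 5, against 45.8% of all tested genes. The other 12 overlapped, smooth muscle markers (8 markers, 10.1 to 10.3 after smoke and 10.1 to 10.7 after air) among them, and mesothelium markers, of which 5 of 5 were lower (median -0.53; 7.87 to 8.73 against 8.28 to 9.47). In AKR with LPS, club cell markers were lower after smoke (5 markers, 10.6 to 10.7 against 11.1 to 11.5), an order of 11.1% of single genes, macrophage markers higher (6 markers, 8.80 to 9.03 against 8.04 to 8.50), an order of 23.9% of single genes, and fibroblast markers overlapped (8.50 to 8.72 against 8.53 to 8.73). No member of these 14 lists passed in any of the 4 smoke comparisons. Nearly all genes tested did not pass either (0.034% called in AKR with saline, 0.0068% with LPS, 0% in C57), so nothing particular is read from this. Of 7 natural killer cell markers 1 or 2 were above the 40th percentile on the AKR saline arrays. In C57 with saline, T cell markers (5 markers, 7.16 to 7.57 against 7.67 to 7.81) and B cell markers (8.27 to 9.57 against 9.71 to 9.93) were lower after smoke, an order of 4.64% of single genes, and with LPS all 14 lists overlapped. The part of these cell types in the Spon2 difference was not tested.

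The genes next to Spon2 on chromosome 5 were set beside it. The 5 protein-coding genes on either side of Spon2 in the RefSeq gene table run from Pisd to Fam53a, with Slc5a1 and Ctbp1 next to it. Their smoke differences in AKR lay between -0.23 and 0.09 with saline and between -0.05 and 0.27 with LPS. In C57 they lay between -0.21 and 0.69 with saline and between -0.54 and 0.07 with LPS. None of the 10 passed in any of these, as for nearly all genes tested (0.034% called in AKR with saline, 0.0068% with LPS, 0% in C57).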

How the data were processed

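The deposited values are log2 intensities per probe set, made by the authors with RMA (robust multi-array averaging), per the submitters' processing notes; its version and settings are not given in the sources used here. Total RNA was turned into biotin-labelled complementary RNA and fragmented for Affymetrix arrays, per the labels. Of 35556 probe sets, 21789 carry 1 gene symbol in the supplied annotation, which was updated through Entrez identifiers. A gene was represented by its highest-mean probe set, and the 14705 of 19938 genes above the 40th percentile of an array on at least 3 arrays were tested.

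Differences were fitted with limma: 11 group means over 31 arrays, contrasts with moderated variances, and p-values adjusted by Benjamini-Hochberg over every tested gene, two-sided, with a threshold of 0.05. Errors after ± are standard errors of the fit. The p-values measure the spread between arrays titled as biological replicates, estimated over all 11 groups, those that chose the gene included. Genes named besides Spon2 are those of highest and lowest correlation with it, up to 3 members of each of 19 lists by size of the AKR saline difference, and a few fixed genes; genes outside this rule are said to be chosen after their values were seen, and chromosomal neighbours were taken by position. The gene, lists and tests were chosen with earlier results of these data known. Scripts were tested on simulated data. Tools were R 4.3.3, limma 3.58.1, Python 3.11.15 and matplotlib 3.10.9.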

Additional observations from a re-analysis of the deposited data

How the results depend on the processing

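Spon2 kept a negative sign under every alternative run (other filter, normalization, moderation, block, arrays in the fit, and each array left out) for all 4 smoke comparisons, their C57 mean, the strain difference of the smoke effect, LPS in C57 after smoke and the strain difference in room air. Leaving out 1 array at a time gave -1.70 to -1.62 for smoke in AKR with saline, -1.43 to -1.07 in AKR with LPS, -0.37 to -0.09 in C57 with saline, -0.56 to -0.32 in C57 with LPS, -0.42 to -0.28 for the C57 mean and -0.96 to -0.60 for the strain difference after LPS. The AKR difference with LPS passed in 6 of 11 alternatives; with its groups fitted alone it was -1.22 (limma adjusted p = 0.318), and the exact permutation test gave 0.1 for -1.22 with a smallest possible value of 0.1. For the C57 mean of -0.36 the exact test of this 1 gene gave p = 0.025, beside an unadjusted limma p of 0.00541. Neither is adjusted over genes, and the limma result did not pass once adjusted over all genes. LPS against saline in C57 after air changed sign under quantile normalization of all arrays (0.0019) and spanned -0.20 to 0.095 with 1 array left out; saline against room air in C57 spanned -0.25 to 0.0048 and LPS against room air in AKR -0.34 to 0.079. LPS in C57 after smoke ranged from -0.43 to -0.15, and AKR against C57 in room air from -0.41 to -0.25.

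Counts of called genes moved more than Spon2 did. For smoke in AKR with saline, 5 became 12 with quantile normalization, 12 with trend and robust moderation, 49 without both doubted C57 arrays and 1 with the groups alone, and 1 to 79 with 1 array left out. For smoke in AKR with LPS, 1 became 2 without the low-value filter, 2 with quantile normalization, 228 without the doubted pair and 0 with the groups alone, and 0 to 435 with 1 array left out. With 1 array left out, 0 became 0 to 16 for C57 with LPS, 0 to 1 for the C57 mean and 0 to 1 for the strain difference of the smoke effect, and 396 became 228 to 333 for AKR against C57. For LPS in C57 after air 2316 became 1121 to 1860; for LPS in C57 after smoke 0 became 3048 without the doubted pair, 1 with the replicate block and 0 to 1881 with 1 array left out. For saline in C57 2 became 1 without the filter, 16 without the doubted pair, 1 with the replicate block, 32 with the groups alone and 0 to 2 with 1 array left out, and for LPS against room air in AKR 2325 became 1359 with the groups alone and 111 to 2368. The causes were not tested.

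Deviations of arrays with the same replicate number in their titles correlated between -0.54 and 0.55 over 14 pairs. The correlations were 0.54 and 0.44 in AKR with LPS and 0.03 to 0.55 in C57 with LPS. They were -0.54 to -0.12 in AKR with saline, -0.07 to -0.02 in C57 with saline and -0.38 to 0.42 between strains in room air. With groups of 2 or 3 arrays this cannot decide whether the numbers pair the samples. With the replicate number as a block, smoke in AKR with LPS was -1.22 (limma adjusted p = 0.0494), smoke in C57 with LPS -0.48, and no call of Spon2 changed.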
